A study of Mus musculus with 16 samples.

Results

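TRAV7 is the family of related variable (V) segments, some of them near-identical copies, that was used more than any other of 20 TRAV families for the T cell receptor (TCR) alpha chain of the splenic CD44high CD4+ T cells sequenced here. Its members were taken as all TRA contigs whose V label begins with TRAV7-, TRAV7D- or TRAV7N- in cells with exactly 1 TRB chain and 1 or 2 TRA chains. The rule found 7556 of 40428 TRA contigs, under 11 of 88 TRAV labels, in 7471 of 38108 such cells (19.6%). TRAV7 was the chain with the most UMIs, or main TRA, in 7165 of these cells and a second chain only in 306, and 85 cells held 2 TRAV7 chains. A clonotype was defined inside a library as 1 combination of TRB and main TRA, each with its V, J and CDR3 nucleotide sequence, and 5791 of 30489 clonotypes (19.0%) had TRAV7 as main TRA.

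The cells came from mice that received an NK1.1-depleting antibody (50 µg per mouse on days -2 and 5), a graft of the Vk12653 multiple myeloma on day 0, and either agonistic anti-4-1BB (aCD137) or control IgG (20 µg on days 10, 13 and 16). CD44high CD4+ T cells were sorted from spleen on day 18 for paired TCR sequencing. The 4 groups, wild type (WT) or Eomes knockout (KO) with IgG or anti-4-1BB, had 2 libraries each, 1 in each of 2 experiments, which the labels also give as batches. WT mice were Eomes-IRES-GFP reporters throughout. KO mice were Eomesfl/fl-CD4Cre in experiment 1, where Cre acts from thymic development onward, and Eomesfl/fl-ERT2CD4Cre in experiment 2, where Cre acts on tamoxifen injection, and WT mice of experiment 2 also received tamoxifen. The kind of knockout and the experiment therefore cannot be told apart. The labels do not state how many mice each library pooled, so p-values measure the spread between these libraries. The Eomes transcript cannot be checked from TCR contigs, and the 8 gene expression libraries of the same cells were not analysed here.

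The libraries held 2656 to 8871 paired cells and 425 to 1450 TRAV7 clonotypes. The median TRAV7 contig had 6 to 11 UMIs, against 6 to 10 for other TRA contigs. Of the receptors that other cell types in the gate could carry, 224 cells had the invariant NKT-like TRAV11–TRAJ18 join and 4 the MAIT-like TRAV1–TRAJ33 join. A single NKT-like cell had TRAV7 as a second chain. Of 71086 barcodes, 3198 occurred in 2 or more libraries, but none of the 5 TRAV7 receptors found with identical nucleotides in 2 libraries (of 5786 receptors) carried the same barcode in both, and each of these receptors stayed inside 1 experiment.

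An alpha chain is built by joining a TRAV segment to a TRAJ segment, and the join, with bases trimmed and added at random, encodes CDR3, the loop that mostly contacts the peptide. CDR1 and CDR2 are fixed by the V segment and mostly contact the MHC molecule. The mouse TRAV locus contains duplicated blocks, and the D and N in a label mark copies in those blocks. A first join can be cut out and replaced by a join of a TRAV farther upstream to a TRAJ farther downstream, and TRAV segments near the TRAJ cluster are known to favour the first TRAJ segments, whereas distant ones are used more in later joins. TRAJ segments with high numbers lie on the TRAV side of their cluster.

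The 11 labels lie on chromosome 14 of GRCm38, in the order TRAV7-1 (start 52654817), TRAV7D-2, TRAV7D-3, TRAV7D-4, TRAV7N-4, TRAV7N-5, TRAV7N-6, TRAV7-3, TRAV7-4, TRAV7-5 and TRAV7-6 (end 53717291), per RefSeq. RefSeq also places TRAV7D-5, TRAV7D-6 and TRAV7-2 there, and no contig of the paired cells carried those labels. The stretch from CDR1 to CDR2 shows how the copies differ. It is given below for the copy used most, a copy of the group whose 3 members are hardest to separate, and the pair with the most unlike TRAJ use. Capitals mark CDR1 and CDR2, and each sequence is the consensus of the contigs.
TRAV7D-2: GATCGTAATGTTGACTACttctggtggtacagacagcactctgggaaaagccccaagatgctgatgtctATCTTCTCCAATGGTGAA
TRAV7-4: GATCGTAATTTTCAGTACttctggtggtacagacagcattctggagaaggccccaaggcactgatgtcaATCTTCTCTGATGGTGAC
TRAV7N-6: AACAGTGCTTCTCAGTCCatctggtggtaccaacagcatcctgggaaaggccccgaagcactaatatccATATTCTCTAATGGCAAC
TRAV7-6: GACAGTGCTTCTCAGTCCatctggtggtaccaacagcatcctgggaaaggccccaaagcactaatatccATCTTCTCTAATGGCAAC

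TRAV7D-2 encodes DRNVDY as CDR1 and IFSNGE as CDR2, and differed from the other copies at 25 to 46 of 264 compared bases. TRAV7-4, TRAV7D-4 and TRAV7N-4, called the -4 copies here, all encode DRNFQY and IFSDGD. Counting positions from 1 at the start of framework 1, TRAV7D-4 differed from TRAV7-4 only by C147A and from TRAV7N-4 by C96T and G135A. TRAV7D-3 differed from TRAV7-3 by G219C and A222G, and these 2 labels share both loops (DSASQY and IFSNGE). TRAV7N-6 and TRAV7-6 differed at 9 bases (96.6% identity), with NSASQS against DSASQS as CDR1 and IFSNGN in both as CDR2. Counts of a single label inside such a pair or triplet rest on these few bases and on the V-encoded start of CDR3, so sums over the labels are also given.

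TRAV7 made up about the same share of clonotypes in every library. It was 20.4%, 19.1%, 18.4% and 18.9% in experiment 1 (WT with IgG, WT with anti-4-1BB, KO with IgG, KO with anti-4-1BB), and 18.1%, 20.5%, 17.6% and 19.5% in the same order in experiment 2. Both libraries of KO with IgG were below all 4 anti-4-1BB libraries, and the WT IgG libraries lay at 20.4% and 18.1%, so that the IgG and anti-4-1BB libraries overlapped, as did WT and KO. The mean of 19.1% ± 1.02 (SD, n = 8) was above that of TRAV6, the next family, at 16.9% ± 1.59. The coefficient of variation over libraries, 5.37%, was the lowest of the 20 families. As the largest family, TRAV7 also has the smallest counting error relative to its share, and the value was not corrected for that. The families with the highest r with TRAV7 over the 8 libraries were TRAV13 (r = 0.457), TRAV4 (0.447) and TRAV18 (0.328). TRAV18 made up only 0.0339% of clonotypes, so its r rests on very few. Larger in size were negative r, at -0.880 for TRAV19, -0.849 for TRAV14 and -0.818 for TRAV11. Among TRBV labels the highest were TRBV15 (0.524), TRBV16 (0.492) and TRBV3 (0.423). These r describe 8 libraries that also differ in depth, and shares of one total are not independent.

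Neither anti-4-1BB nor the knockout passed the test on the TRAV7 share. Anti-4-1BB minus IgG was 0.873 ± 1.62 percentage points, higher in 3 of 4 pairs of libraries of 1 genotype and experiment. The fitted log2 difference was 0.07 ± 0.13 (SE; edgeR quasi-likelihood test, adjusted p = 0.827 over 19 families tested). KO minus WT was -0.906 ± 0.758 points, lower in all 4 pairs, with a log2 difference of -0.07 ± 0.13 (edgeR adjusted p = 0.945). Of all 19 families, edgeR called 0 (0.0%) in either contrast, with 1 and 0 at an unadjusted p under 0.05, and DESeq2 also called 0, with 1 and 0. The 13 families with D or N copies, TRAV7 among them, had median log2 differences of -0.05 with anti-4-1BB and 0.01 in KO, with 0 called.

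By genotype, the log2 difference with anti-4-1BB was 0.04 ± 0.18 in WT (edgeR adjusted p = 0.933) and 0.09 ± 0.18 in KO (0.994), and the difference between those was 0.05 ± 0.25 (0.937). The contrasts by experiment came from another fit, to the means of each combination of experiment and treatment. There the WT and KO libraries served as the replicates, so its SE cannot be set beside those by genotype. In that fit the log2 difference with anti-4-1BB was -0.03 ± 0.08 in experiment 1 (edgeR adjusted p = 0.899). It was 0.16 ± 0.08 in experiment 2 (0.202), where 1 other family was called (5.26%). The difference between experiments was 0.19 ± 0.11 (edgeR adjusted p = 0.201). In experiment 2 the scaling matters to the size: the median of all families was -0.27, and with DESeq2 size factors it was -0.06 and TRAV7 was at 0.37, with an adjusted p of 0.204.

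Use of the copies was very uneven, with TRAV7D-2 first and TRAV7-5 next in all 8 libraries. TRAV7D-2 (chr14:52683964-52684472) gave 2011 clonotypes, 34.7% of the family, and 6.60% ± 0.748 of all clonotypes (SD, n = 8). Its share was 8.20%, 6.59%, 6.03% and 6.31% in experiment 1 (groups in the order above) and 5.99%, 6.72%, 5.97% and 6.98% in experiment 2, so the WT IgG library of experiment 1 stood highest and the other 7 lay close together. TRAV7-5 (chr14:53530786-53531313) followed at 3.20% ± 0.399, with its highest library, WT anti-4-1BB of experiment 2, at 4.09%. No library of TRAV7-5 reached the lowest of TRAV7D-2.

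The middle of the order was TRAV7-3 at 1.91% ± 0.284, TRAV7-6 at 1.62% ± 0.270, TRAV7N-6 at 1.45% ± 0.252, TRAV7N-5 at 1.26% ± 0.275, TRAV7-4 at 1.19% ± 0.279 and TRAV7D-3 at 1.04% ± 0.206. Neighbours among these 6 overlapped in their library ranges. The rare copies were TRAV7D-4 (0.344% ± 0.0891), TRAV7-1 (0.281% ± 0.124) and TRAV7N-4 (0.165% ± 0.0769), which rested on 112, 93 and 53 clonotypes. Summed, the 3 -4 copies made up 1.70% ± 0.367 the pair TRAV7-3 and TRAV7D-3 2.95% ± 0.454 and the pair TRAV7-6 and TRAV7N-6 3.07% ± 0.373.

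**Figure D1:**
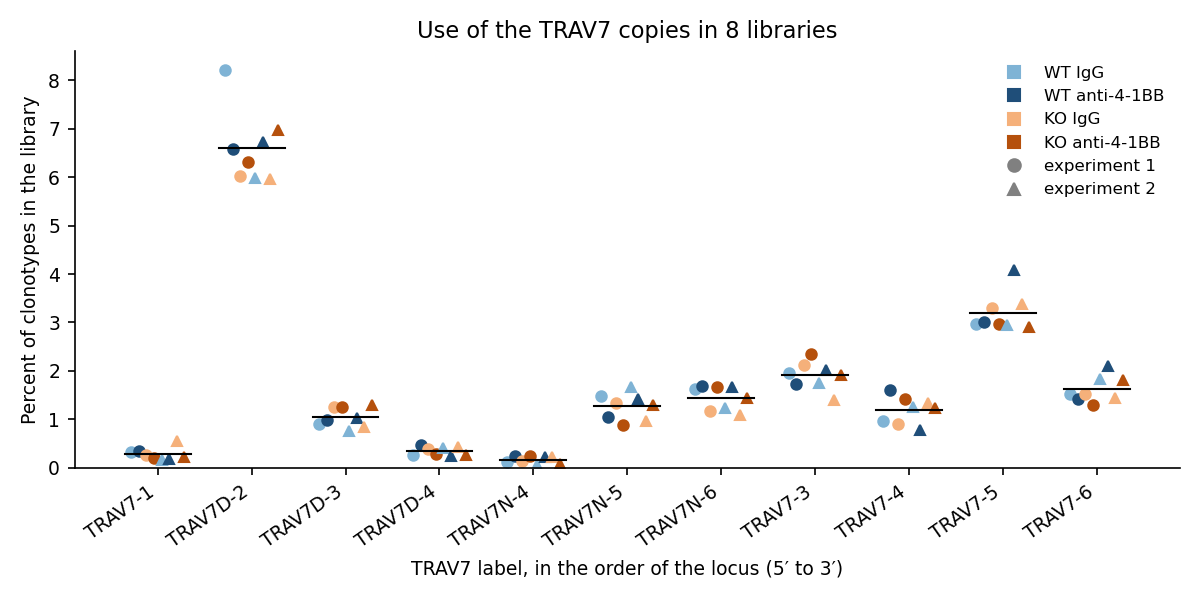
Percent of the clonotypes of a library that use each TRAV7 label (vertical axis), with labels in locus order along the horizontal axis; each point is 1 of 8 libraries, coloured by group and shaped by experiment, and the bar is the mean over the 8 libraries. TRAV7D-2 stands alone at 5.97% to 8.20%, TRAV7-5 comes next, and colours are mixed within every label.

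None of the 11 labels was called for anti-4-1BB or for the knockout. edgeR called 1 of 76 TRAV labels in each of these contrasts (1.32%), neither of them a TRAV7 copy, and 0 of the 11 had an unadjusted p under 0.05 in either, with edgeR or with DESeq2. The median log2 difference of the 11 with anti-4-1BB was 0.06, against -0.03 over all 76 labels, and with the knockout -0.04 against 0.04. TRAV7N-6 was the only label higher with anti-4-1BB in 4 of 4 pairs. Its share was 1.64% (WT) and 1.17% (KO) under IgG against 1.69% and 1.67% under anti-4-1BB in experiment 1, and 1.23% and 1.09% against 1.67% and 1.44% in experiment 2. The pairs differed by 0.337 ± 0.199 points, and the log2 difference of 0.35 ± 0.26 missed the threshold (edgeR adjusted p = 0.954). These TRAV7N-6 clonotypes include a set with TRAJ22 and TRBV5 described below, so the observations are not separate. In experiment 1 the set gave 7 of 128 (WT) and 7 of 40 (KO) with anti-4-1BB, and 1 of 56 and 0 of 27 with IgG. In experiment 2 it gave 2 of 47 and 1 of 51, and 0 of 45 and 0 of 52. With the knockout, TRAV7D-3 was higher in 4 of 4 pairs (log2 difference 0.31 ± 0.28) and TRAV7-6, TRAV7N-5 and TRAV7N-6 were lower in 4 of 4 (-0.15 ± 0.26, -0.31 ± 0.27 and -0.23 ± 0.26), all at an edgeR adjusted p of 0.966. Summed with its pair, TRAV7-6 and TRAV7N-6 differed by 0.412 ± 0.371 points with anti-4-1BB, higher in 3 of 4 pairs of libraries, and by -0.411 ± 0.189 points with the knockout, lower in 4 of 4. TRAV7-3 and TRAV7D-3 together differed by 0.322 ± 0.494 points with the knockout, higher in 3 of 4. These sums were not tested.

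In the 6 further contrasts, by genotype, by experiment and of their differences, again 0 of 11 labels were called by edgeR or DESeq2. The edgeR background was 1 of 76 (1.32%) in WT, in KO and in experiment 2, and 0 of 76 (0.0%) in the others. Among these contrasts 3 tests of a label had an unadjusted p under 0.05 with edgeR, and none with DESeq2. For TRAV7-4 the log2 difference with anti-4-1BB was 0.71 ± 0.29 in experiment 1 (edgeR adjusted p = 0.292), with WT and KO as replicates. Its share there was 0.964% and 0.910% with IgG and 1.60% and 1.42% with anti-4-1BB (WT and KO). In experiment 2 the same pairs ran 1.26% and 1.34% with IgG to 0.782% and 1.24%, and the difference between experiments was -1.04 ± 0.41 (edgeR adjusted p = 0.152). The sum of the 3 -4 copies went the same way, from 1.34% and 1.43% with IgG to 2.31% and 1.96% with anti-4-1BB in experiment 1, and from 1.72% and 1.99% to 1.24% and 1.58% in experiment 2. Part of the rise in experiment 1 lay in clonotypes of TRBV12-1, a beta label described below. Without them TRAV7-4 ran from 0.982% and 0.919% with IgG to 1.44% and 1.23% with anti-4-1BB in experiment 1. The sum then ran from 1.37% and 1.44% to 2.06% and 1.82%. The third label test was TRAV7N-4 in WT, which rested on 4 and 2 clonotypes with IgG and on 18 and 6 with anti-4-1BB.

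The TRAJ partners of TRAV7 differed from those of other alpha chains. Over TRAJ segments, edgeR with the library as a term called 8 of 43 (18.6%) between TRAV7 and other clonotypes of the same library, 5 lower (11.6%) and 3 higher (6.98%). Called lower by the most were the 3 of highest number, which lie nearest the TRAV genes. TRAJ57 joined 0.775% ± 0.300 of TRAV7 clonotypes against 2.44% ± 0.470 of the others, with 0.174% to 1.10% over the 8 TRAV7 sets and a median of 2.41% and highest value of 3.45% over the others (log2 difference -1.505 ± 0.20, edgeR adjusted p = 2.56e-11). The TRAV7 and other sets did not overlap. TRAJ58 joined 0.384% ± 0.245 against 1.44% ± 0.0929 (-1.79 ± 0.26, adjusted p = 1.39e-09) and TRAJ56 0.992% ± 0.440 against 2.37% ± 0.293 (-1.30 ± 0.19, adjusted p = 1.39e-09). All 3 were lower in 8 of 8 libraries. TRAJ50 (1.04% ± 0.374 against 1.73% ± 0.301, 8 of 8 lower) and TRAJ49 (2.04% ± 0.626 against 2.94% ± 0.316, 7 of 8 lower) also fell below the other chains, with edgeR adjusted p of 0.00348 and 0.00165.

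The 3 segments used more with TRAV7 lie toward the other end of the TRAJ cluster. TRAJ22 joined 5.79% ± 0.956 of TRAV7 clonotypes against 4.40% ± 0.340 (log2 difference 0.40 ± 0.11, edgeR adjusted p = 0.00239, higher in 7 of 8 libraries). That call ended with DESeq2 (adjusted p = 0.0753) and with cells in place of clonotypes (edgeR adjusted p = 0.188). TRAJ6 joined 2.84% ± 0.934 against 1.91% ± 0.340 (0.58 ± 0.15, adjusted p = 0.00132, 7 of 8). TRAJ15 joined 3.61% ± 1.08 against 2.75% ± 0.388 (0.37 ± 0.13, adjusted p = 0.0283, 6 of 8). The TRAJ15 call ended with DESeq2 (adjusted p = 0.174), and in edgeR with cells in place of clonotypes (adjusted p = 0.179) and with exactly 1 TRA (0.0630). It also ended when any of 5 libraries was left out. These were both of WT with IgG, both of experiment 1 with anti-4-1BB, and that of KO with IgG in experiment 2 (edgeR adjusted p 0.0532 to 0.0812). Of the 22 tested segments numbered above 30, 0 were higher and 5 lower, with a median log2 difference of -0.14. Of the 21 numbered 30 or below, 3 were higher and 0 lower, with a median of 0.20, beside -0.05 over all 43. At an unadjusted p under 0.05, edgeR had 1 higher and 7 lower above 30, and 8 higher and 0 lower at 30 or below. DESeq2 called 0 higher and 5 lower above 30, and 1 higher and 0 lower at 30 or below.

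**Figure D2:**
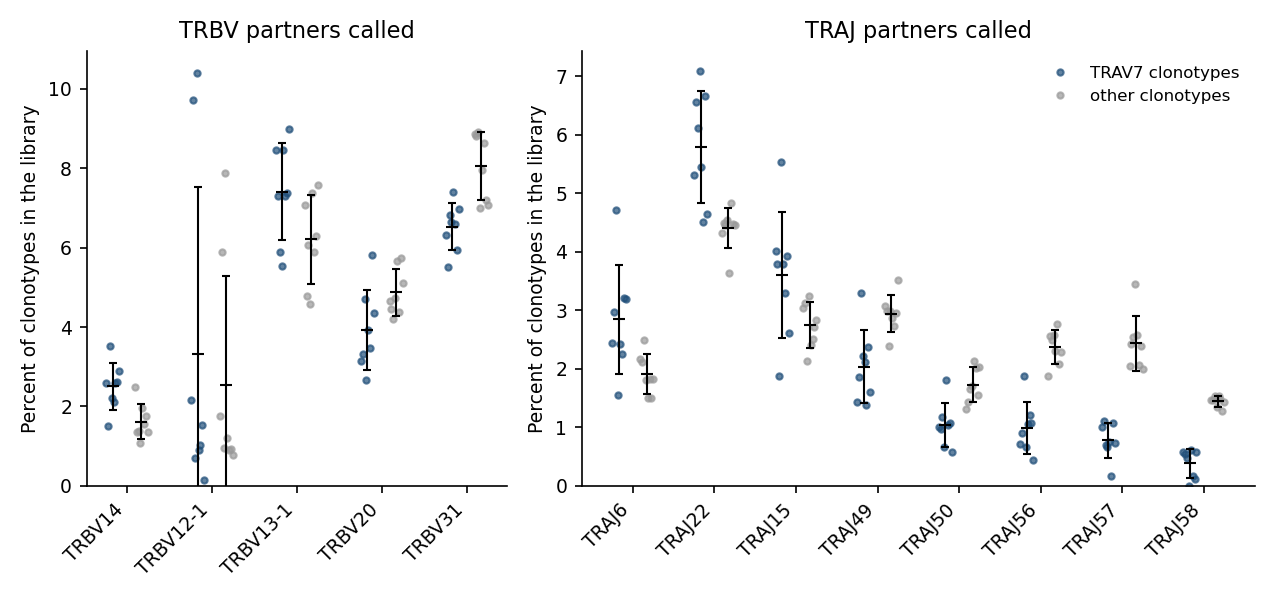
Percent of the clonotypes of a library that carry each called TRBV (left) or TRAJ (right) label; blue points are the TRAV7 clonotypes and grey points the other clonotypes of 8 libraries, and bars are the mean ± SD. TRAJ56, TRAJ57 and TRAJ58 lie lower with TRAV7, whereas the 2 highest TRBV12-1 points in each colour are the anti-4-1BB libraries of experiment 1.

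The low use of these TRAJ segments was not a feature of all copies. TRAV7-6 (chr14:53716760-53717291), the copy closest to the TRAJ cluster, joined a TRAJ numbered above 30 in 90.1% ± 3.72 of its clonotypes (84.7% to 94.2% over 8 libraries), against 52.5% ± 1.72 for other TRAV and 45.7% ± 3.76 for the TRAV7 family. Every library of TRAV7-6 was above every library of other TRAV, and the family without TRAV7-6 was at 41.6% ± 3.52, below other TRAV in 8 of 8 libraries. TRAV7N-6, which is 96.6% identical to it, was at the opposite end, at 26.2% ± 6.53 (18.5% to 37.8%). These shares were pooled or taken per library as a description, since the order by copy was chosen after the values were seen.

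Over all libraries, TRAJ56, TRAJ57 or TRAJ58 occurred in 48 of 484 TRAV7-6 clonotypes (9.92%), 42 of 964 of TRAV7-5 (4.36%) and 21 of 376 of TRAV7N-5 (5.59%). They occurred in 9 of 2011 TRAV7D-2 clonotypes (0.448%) and in 0 of 446 TRAV7N-6 clonotypes, while other TRAV had 1532 of 24698 (6.20%). TRAV7-5, next to TRAV7-6 in the order of the copies, was also the only other copy with most of its joins above TRAJ30 (59.3%). The remaining 9 copies ranged from 25.6% to 41.6%.

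**Figure D3:**
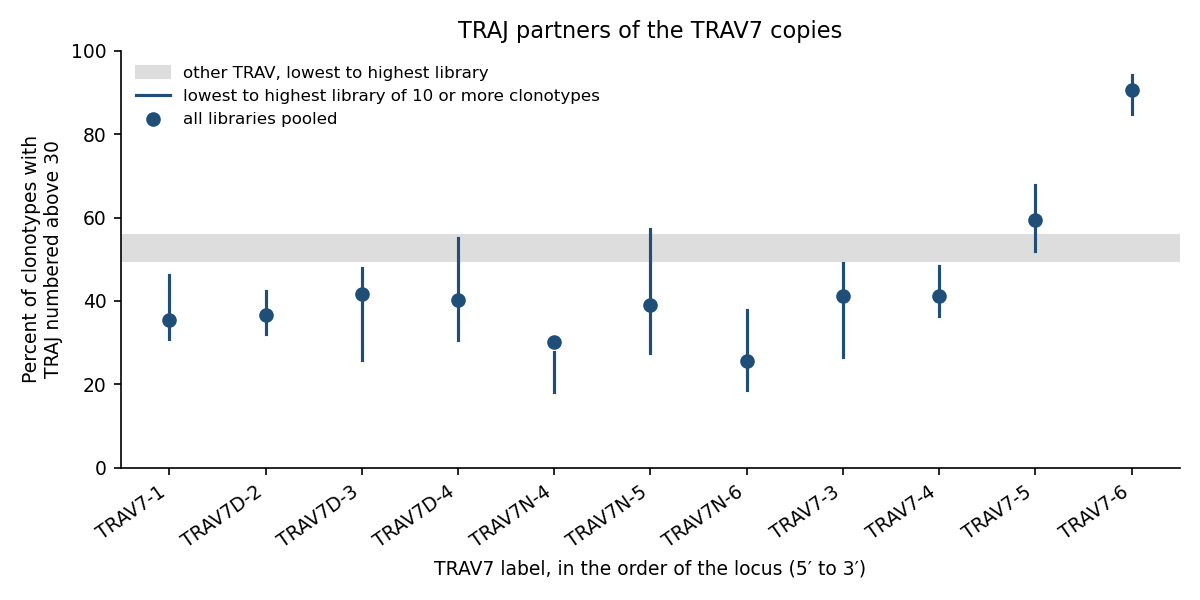
Percent of clonotypes of each TRAV7 label whose TRAJ is numbered above 30 (vertical axis), with labels in locus order; points pool all libraries, lines run from the lowest to the highest library that holds 10 or more clonotypes of the label (2 libraries for TRAV7N-4, so its line does not reach its point), and the grey band is the range of other TRAV over 8 libraries. TRAV7-6 is far above the band at 90.7%, TRAV7-5 at 59.3% is just above it, and TRAV7N-6 is lowest at 25.6%.

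On the beta side, edgeR called 5 of 22 TRBV labels (22.7%) between TRAV7 and other clonotypes, 3 higher (13.6%) and 2 lower (9.09%). DESeq2 called 1. The label that both called was TRBV14, at 2.51% ± 0.591 of TRAV7 clonotypes against 1.62% ± 0.445 of others. It was higher in 8 of 8 libraries, by least in WT IgG of experiment 1 (2.58% against 2.49%) and by most in KO IgG of experiment 1 (3.53% against 1.38%). The log2 difference was 0.54 ± 0.16 (edgeR adjusted p = 0.0115, and 0.0398 with DESeq2), and leaving out each library in turn gave 0.46 to 0.63 with adjusted p from 0.00895 to 0.0480.

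The other calls were less steady. TRBV13-1 was higher in 7 of 8 libraries (7.42% ± 1.23 against 6.21% ± 1.12; log2 difference 0.29 ± 0.10, edgeR adjusted p = 0.0173). TRBV31 was lower in 8 of 8 (6.53% ± 0.596 against 8.06% ± 0.855; -0.33 ± 0.10, adjusted p = 0.0115). Both calls ended when WT with anti-4-1BB was left out of experiment 1 (0.22, adjusted p = 0.229, and -0.25, adjusted p = 0.220) and with DESeq2 (adjusted p = 0.220 for both). The TRBV31 call also ended with cells in place of clonotypes (-0.32, edgeR adjusted p = 0.195). TRBV20 was lower in 6 of 8 (3.93% ± 1.01 against 4.87% ± 0.585; -0.32 ± 0.12, edgeR adjusted p = 0.0371). That call ended with TMM factors (adjusted p = 0.0935), with DESeq2 (0.265), and when any of 5 libraries was left out, namely both of WT with IgG, both of KO with anti-4-1BB, and that of WT with anti-4-1BB in experiment 1 (0.0557 to 0.220). All 4 TRBV13 labels, counting the joined label TRBV12-2+TRBV13-2 of the files as 1 of them, had a difference above 0. Their median was 0.13, with 1 called, against -0.02 over all 22 TRBV labels. The 2 TRBV12 labels, without the joined label, had opposite signs. TRBV12-1 was at 0.44 and called, and TRBV12-2 was at -0.05, so their median of 0.19 describes neither.

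TRBV12-1 was used by many TRAV7 clonotypes in 2 libraries and by few elsewhere. Its share of TRAV7 clonotypes in experiment 1 was 2.15% (15 of 697) in WT IgG, 9.72% (141 of 1450) in WT anti-4-1BB, 0.706% (3 of 425) in KO IgG and 10.4% (47 of 452) in KO anti-4-1BB. In experiment 2 it was 0.908%, 1.04%, 1.55% and 0.145% in the same order. Only the anti-4-1BB libraries of experiment 1 stood apart. The mean of anti-4-1BB minus IgG was 4.00 ± 5.46 points over 4 pairs, higher in 3 of 4 (two-sided exact permutation p = 0.375, adjusted p = 0.656 over 7 such tests; 0.125 is the smallest p that 4 pairs allow). It was 8.63 ± 1.499 in experiment 1 and -0.633 ± 1.09 in experiment 2.

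Other TRAV clonotypes in the same libraries showed the same shape at a lower level. Their TRBV12-1 share was 5.90% and 7.89% in the anti-4-1BB libraries of experiment 1 and 0.772% to 1.76% in the remaining 6. The log2 difference between TRAV7 and other clonotypes was 0.44 ± 0.14 (edgeR adjusted p = 0.0159), higher in 5 of 8 libraries. It was 0.20 when WT with anti-4-1BB was left out of experiment 1 (edgeR adjusted p = 0.545). With all libraries kept it was 0.19 with DESeq2 (adjusted p = 0.751) and 0.21 with cells in place of clonotypes (edgeR adjusted p = 0.506). The call therefore depended on that library, on the tool and on the unit counted.

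Within the family, all copies took part. In the anti-4-1BB libraries of experiment 1 the TRBV12-1 share was 9.98% of TRAV7D-2 (65 of 651), 10.1% of TRAV7N-6 (17 of 168), 5.94% of TRAV7N-5 (6 of 101), 6.02% of TRAV7-5 (18 of 299) and 16.8% of TRAV7-4 (26 of 155). The 3 -4 copies together had 36 of 222 there (16.2%, exact Clopper-Pearson 95% interval 11.6% to 21.7%). They had 0 of 328 in the remaining 6 libraries, with an exact upper limit of 1.12%. Intervals and limits of this kind cover counting error only. TRAV7-3 and TRAV7D-3 together had 31 of 292 in those anti-4-1BB libraries (10.6%). Their share was below that of the -4 copies in WT (7.77% against 16.6%) and above it in KO (17.4%, 15 of 86, against 14.9%, 7 of 47). TRAV7-1 had 4 of 31 (12.9%). The comparison of copies was not planned and carries no test. The 188 TRAV7 clonotypes with TRBV12-1 in those 2 libraries (81.0% of 232) held 181 distinct CDR3 beta sequences, 38 TRAJ and 12 TRBJ segments, with TRAJ22 the most used at 21 clonotypes and TRBJ2-7 and TRBJ1-1 at 41 and 40. They were small: the largest TRBV12-1 clone in all libraries had 3 cells, and 20 of 199 cells there (10.1%) were in clones of 2 or more.

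**Figure D4:**
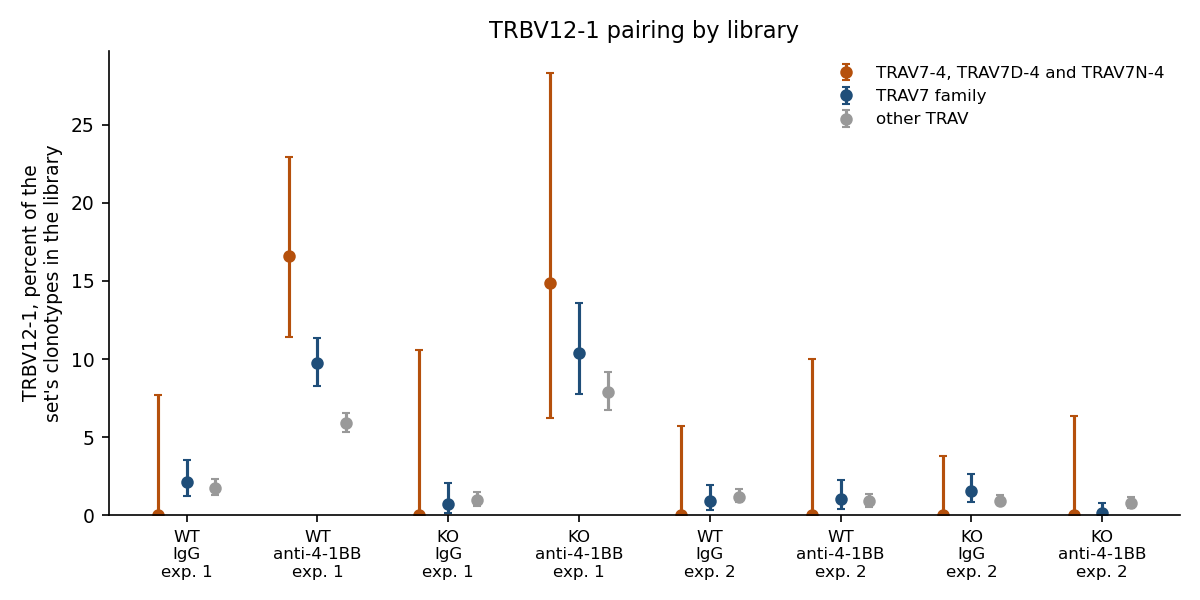
Percent of clonotypes that carry TRBV12-1 (vertical axis) in each of 8 libraries, for the 3 -4 copies (orange), the TRAV7 family (blue) and other TRAV (grey); bars are exact Clopper-Pearson 95% intervals, which cover counting error only. The anti-4-1BB libraries of experiment 1 reach 9.72% and 10.4% for the family, and the -4 copies are at 0 in the remaining 6.

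The CDR3 alpha of TRAV7 was close in length to that of other chains. The mean was 13.3 residues in TRAV7 clonotypes (13.2 to 13.4 over libraries) and 13.4 in others (13.3 to 13.5), a difference of -0.0952 ± 0.0732 residues, shorter in 7 of 8 libraries. The two-sided exact sign-flip permutation p was 0.0156 (adjusted p = 0.109 over 7 tests), and with cells in place of clonotypes the difference was -0.0441 (p = 0.289). Lengths of 13 residues made up 34.6% ± 1.44 of TRAV7 and 30.2% ± 0.977 of other clonotypes, and lengths of 15 residues 11.4% ± 1.55 and 13.7% ± 1.60. Bases that match neither V nor J averaged 2.82 ± 0.0822 in TRAV7 and 2.85 ± 0.0593 in others. The V and J ends used for this were inferred base by base from a 60% majority of the clonotypes of each label, not from germline sequences. Length changed by -0.0358 ± 0.0578 residues with anti-4-1BB and by 0.0463 ± 0.0692 in KO (two-sided exact permutation p = 0.375 for each, over 4 pairs).

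The V segment decides how CDR3 alpha begins. In the 1-letter amino acid code, 96.2% of TRAV7D-2, 97.4% of TRAV7-4 and 97.3% of TRAV7D-4 clonotypes had a CDR3 beginning with CAA, while the other copies mostly began with CAV (81.6% to 94.3%). Among the 3 -4 copies, alike in CDR1 and CDR2, TRAV7N-4 therefore parts from the others at CDR3, as the inferred V ends show. TRAV7-4 and TRAV7D-4 have the same bases there as far as both ends reach. Each end stops where the 60% majority is lost, so its length need not be the germline length.
TRAV7-4: tgtgcagctagtgagca
TRAV7D-4: tgtgcagctagtgagc
TRAV7N-4: tgtgcagttagtg
TRAV7D-2: tgtgcagcaagca

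Some TRAV7 alpha chains recurred across libraries with different beta chains. Of 4482 distinct TRAV7 alpha chains (V, J and CDR3 residues), 488 occurred in 2 or more libraries (10.9%), against 1875 of 19938 for other TRAV (9.40%). Bases that match neither V nor J averaged 3.23 in chains of 1 library, 1.92 in chains of 2 and 1.06 in the chain of all 8. All 13 chains found in 6 or more libraries used TRAV7D-2, which made up 25.9% of chains of 1 library. The chain found in all 8, TRAV7D-2–TRAJ27 with a CDR3 of 13 residues, occurred in 17 clonotypes with 17 beta chains of 9 TRBV labels, and 16 of them shared 1 nucleotide sequence. A TRAJ31 chain (17 clonotypes), a TRAJ12 chain (14) and a TRAJ37 chain (13) of TRAV7D-2 occurred in 7 libraries each. The next 6 in this order, with TRAJ15, TRAJ18, TRAJ22, TRAJ23 or TRAJ30, occurred in 6 libraries each, in 8 to 13 clonotypes. The main nucleotide sequence of each is printed because they show how few bases, marked by capitals, match neither V nor J in the most shared chains.
TRAV7D-2 TRAJ27, 8 libraries: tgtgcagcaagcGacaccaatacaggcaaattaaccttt
TRAV7D-2 TRAJ31, 7 libraries: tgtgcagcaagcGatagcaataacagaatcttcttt
TRAV7D-2 TRAJ12, 7 libraries: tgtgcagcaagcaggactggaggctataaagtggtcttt
TRAV7D-2 TRAJ37, 7 libraries: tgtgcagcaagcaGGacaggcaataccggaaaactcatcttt

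The TRAJ12 chain stood out by its beta partner. Of its 14 clonotypes, 9 used TRBV16, and of all 76 TRAV7D-2–TRAJ12 clonotypes 20 did (26.3%), against 4.49% of all TRAV7 clonotypes. These 20 came from 7 libraries and had 20 different CDR3 beta sequences. The other 3 recurrent chains above used TRBV12-2+TRBV13-2, a joined label in the files, or TRBV14 most often, in 6, 5 and 3 of their clonotypes. These pairings were singled out after their values were seen and carry no test.

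The most alike TRAV7 receptors were found almost only with anti-4-1BB. TRAV7N-6 joined to TRAJ22 in 48 clonotypes, and 18 of them (37.5%) had TRBV5 as partner, against 5.49% of all TRAV7 clonotypes. Of the 18, 17 were in anti-4-1BB libraries: 7 each in WT and KO of experiment 1, and 2 in WT and 1 in KO of experiment 2. The remaining 1, in WT IgG of experiment 1, had an unrelated CDR3 beta (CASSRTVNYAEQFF). The share of TRAV7 clonotypes was 0.483% (7 of 1450), 1.55% (7 of 452), 0.347% (2 of 576) and 0.145% (1 of 689) in those 4 anti-4-1BB libraries, and 0.143% (1 of 697) in that IgG library. It was 0 of 425, 0 of 661 and 0 of 841 in the other IgG libraries, with exact Clopper-Pearson upper bounds of 0.864%, 0.557% and 0.438%. All 4 anti-4-1BB values therefore lay above the IgG value of their pair, but the exact Clopper-Pearson intervals overlapped in each pair. For KO in experiment 1 the anti-4-1BB interval was 0.625% to 3.16%, against the IgG upper bound of 0.864%. For WT in experiment 1 it was 0.194% to 0.992%, against an IgG upper bound of 0.797%. TRBV5 itself made up 3.80% to 6.39% of all clonotypes in the anti-4-1BB libraries and 4.64% to 5.91% in the IgG libraries, which overlap. The set was found by looking for repeats among all 5707 combinations of TRAV7 label, TRAJ, TRBV and CDR3 beta, so it is described without a test. This also holds for its split by treatment, since the repeats it was chosen by lay in anti-4-1BB libraries.

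In this set 11 clonotypes encoded the same CDR3 beta, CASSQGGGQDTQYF with TRBJ2-5, in 3 libraries, all with anti-4-1BB (4 in WT and 5 in KO of experiment 1, 2 in WT of experiment 2). No other combination of the 5707 reached 4 clonotypes, 8 others had 3, and 67 in all had 2 or more. The 11 clonotypes came from 7 beta and 6 alpha nucleotide sequences and made up 13 cells with 13 barcodes, the largest clone having 2 cells. Their beta chains rested on 8 to 41 UMIs per cell and their alpha chains on 4 to 16. A single clonotype with another TRAV, also in WT anti-4-1BB of experiment 1, had this CDR3 beta. The alpha chain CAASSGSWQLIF occurred in 10 of the 18 clonotypes and the others differed from it only in the residues around the V–J join. The 7 beta sequences are printed because they show the same residues reached by different bases, and capitals mark bases that match neither V nor J.
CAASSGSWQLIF alpha: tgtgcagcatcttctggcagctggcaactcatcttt
WT and KO anti-4-1BB, experiment 1: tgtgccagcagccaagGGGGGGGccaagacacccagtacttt
WT and KO anti-4-1BB, experiment 1: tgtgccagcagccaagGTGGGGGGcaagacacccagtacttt
WT and KO anti-4-1BB, experiment 1: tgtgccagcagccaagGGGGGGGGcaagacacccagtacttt
WT anti-4-1BB, experiment 1: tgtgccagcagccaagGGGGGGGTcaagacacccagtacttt
KO anti-4-1BB, experiment 1: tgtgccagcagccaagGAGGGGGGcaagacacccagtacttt
WT anti-4-1BB, experiment 2: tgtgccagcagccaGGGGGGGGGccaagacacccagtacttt
WT anti-4-1BB, experiment 2: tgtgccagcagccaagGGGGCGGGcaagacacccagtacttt

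The other members of the set were similar. Of the 18, 12 used TRBJ2-5 and 5 used TRBJ2-4, and 2 clonotypes with TRBJ2-4, in WT and KO anti-4-1BB of experiment 1, encoded 1 CDR3 beta from different nucleotide sequences. The single clonotype of KO anti-4-1BB in experiment 2 encoded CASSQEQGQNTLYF, also with TRBJ2-4. The runs of G lie in the part of CDR3 beta that the TRBD segments and added bases encode.

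Large clones used TRAV7 about as often as clonotypes in general. Of 475 clonotypes with 5 or more cells, 83 were TRAV7 (17.5%, exact Clopper-Pearson 95% interval 14.2% to 21.2%), and of 120 with 10 or more cells 19 were (15.8%, 9.81% to 23.6%). TRAV7D-2 gave 39 of the 83, TRAV7-3 13, and TRAV7-5 and TRAV7N-5 8 each. TRAV7-4 gave 1, or 0.260% of its 385 clonotypes, against 1.94% of TRAV7D-2 and 2.33% of TRAV7-3. TRAV7D-4 and TRAV7N-4 gave none of their 112 and 53. Per library TRAV7 gave 1 of 24 such clones in KO IgG of experiment 1 and 4 of 8 in KO anti-4-1BB of experiment 1, and 15.8% to 19.6% in the remaining 6.

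The largest TRAV7 clone, of 24 cells, was in KO anti-4-1BB of experiment 2 and made up 0.489% of its paired cells, the fifth clone of that library by size. It paired TRAV7D-2–TRAJ27 with a beta chain on the joined TRBV12-2+TRBV13-2 label. In the same library 10 more cells held this alpha chain, each with a beta chain of its own. Their median UMI counts were 14 for the alpha chain and 11.5 for the beta chain, against 13.5 for the alpha chain in the clone. No other library held it. Clones of 20 cells were TRAV7N-5–TRAJ38 with TRBV1 (WT anti-4-1BB, experiment 2), TRAV7D-2–TRAJ27 with TRBV13-1, and TRAV7-3–TRAJ34 with TRBV26 (both WT anti-4-1BB, experiment 1, where no clone was larger). The alpha junctions of the 3 clones of 20 cells are shown for comparison with the recurrent chains, and capitals again mark bases that match neither V nor J.
TRAV7N-5 TRAJ38, 20 cells: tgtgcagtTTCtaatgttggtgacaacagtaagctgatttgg
TRAV7D-2 TRAJ27, 20 cells: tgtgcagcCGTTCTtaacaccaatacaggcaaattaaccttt
TRAV7-3 TRAJ34, 20 cells: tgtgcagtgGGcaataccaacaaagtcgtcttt

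The next 6 clones had 12 to 19 cells. Those of 19 cells were TRAV7D-2–TRAJ2 with TRBV13-3 (KO anti-4-1BB, experiment 2) and TRAV7-6–TRAJ58 with TRBV1 (KO IgG, experiment 2). TRAV7-5 gave a clone of 15 cells with TRAJ26 in WT anti-4-1BB of experiment 2 and a clone of 14 cells with TRAJ37 in WT IgG of experiment 1. The clones of 12 cells used TRAV7D-2, with TRAJ39 and TRBV14 in WT anti-4-1BB of experiment 2 and with TRAJ15 and TRBV1 in WT anti-4-1BB of experiment 1.

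The expanded share is the percentage of cells whose clonotype held at least 2 cells. To make libraries comparable it was calculated as the value expected if every library were reduced to 2656 cells, the size of the smallest. For TRAV7 cells it was 20.8%, 12.9%, 17.3% and 23.2% in experiment 1 (groups in the order above), and 22.02%, 35.4%, 22.8% and 26.3% in experiment 2. Without thinning it was 24.9%, 22.8%, 17.5% and 23.2%, then 27.6%, 41.5%, 31.5% and 31.1%. With thinning, WT anti-4-1BB was the lowest library of experiment 1 and the highest of experiment 2, whereas without it KO IgG was the lowest of experiment 1. Anti-4-1BB minus IgG was 3.74 ± 8.80 points, higher in 3 of 4 pairs (two-sided exact permutation p = 0.5, adjusted p = 0.700), at -0.985 ± 9.75 in experiment 1 and 8.46 ± 6.94 in experiment 2. KO minus WT was -0.407 ± 8.17 points, higher in 2 of 4 pairs (two-sided exact permutation p = 1).

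The expanded share of TRAV7 cells did not pass the test against that of other cells. The difference was -0.617 ± 5.39 points, higher in 5 of 8 libraries (two-sided exact sign-flip permutation p = 0.711). In 3 of the 4 groups its sign differed between experiments. In experiment 1 it was 1.94, 1.34, -6.29 and 8.29 points (groups in the order above), and in experiment 2 it was 0.875, -7.40, 2.02 and -5.72 points.

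**Figure D5:**
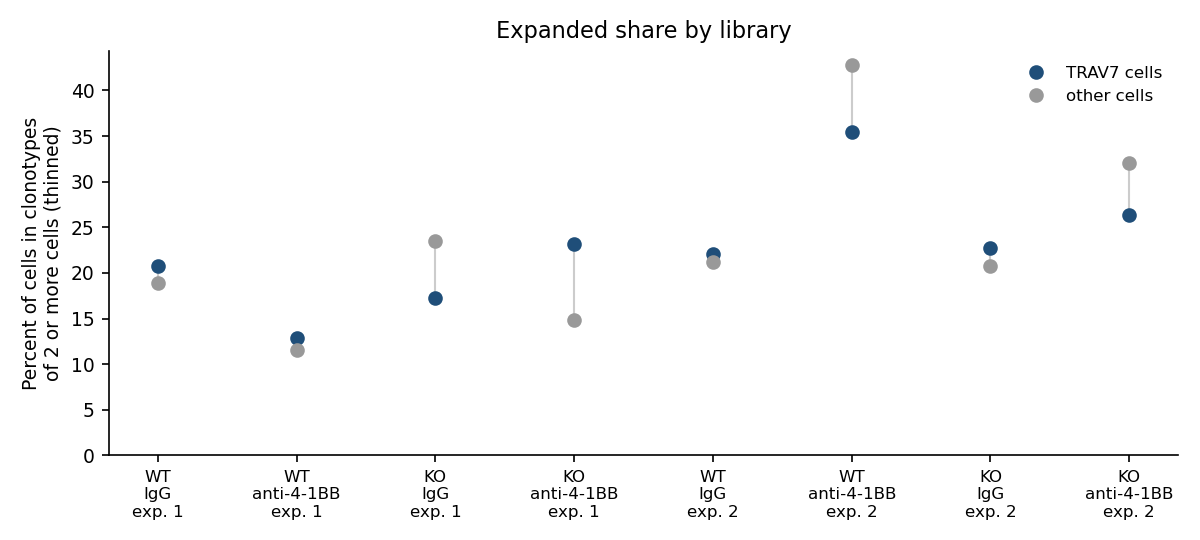
Expanded share (vertical axis, percent of cells whose clonotype holds at least 2 cells, reduced to 2656 cells per library) of TRAV7 cells (blue) and other cells (grey) in each of 8 libraries, joined by a line within a library. TRAV7 is above other cells in 5 libraries and below in 3, and the highest pair is WT anti-4-1BB of experiment 2.

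Among copies, without thinning and over all libraries, the expanded share was 30.8% for TRAV7D-2 (795 of 2583 cells), 30.4% for TRAV7-3 and 30.3% for TRAV7N-5. It was lowest for the -4 copies, at 19.9% for TRAV7-4 (88 of 442), 14.9% for TRAV7D-4 and 7.27% for TRAV7N-4 (4 of 55). TRAV7-1 was next and close to TRAV7-4, at 20% (22 of 110). Thinned and by library, the -4 copies together were at 17.02% ± 12.5 (3.11% to 35.4%), below the family in 5 of 8 libraries, and TRAV7D-2 at 23.9% ± 8.76 (9.99% to 37.8%). The pairs TRAV7-6 and TRAV7N-6 (19.6% ± 8.12) and TRAV7-5 and TRAV7N-5 (22.1% ± 8.62) were also below the family in 5 of 8 libraries. The ranges of all these sets overlapped widely. The lowest value of the -4 copies, 3.11%, was in WT anti-4-1BB of experiment 1, the library with most of their TRBV12-1 clonotypes, and leaving out TRBV12-1 gave 2.51% there and 17.5% ± 13.0 over the 8 libraries.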

How the data were processed

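Paired TCR sequences of 8 libraries were analysed. The deposited contig tables give UMI counts and read counts per contig, made by the authors; the submitters' processing notes name Cell Ranger 7.1.0 and GRCm38. The V(D)J reference is not given in the sources used here. The members, lists and comparisons were chosen with earlier results of these data known. Cells with exactly 1 TRB and 1 or 2 TRA were kept. Clonotypes per label (minimum 10 in 2 columns) were tested with edgeR 4.0.16 (quasi-likelihood, segment total as library size, no dispersion trend; DESeq2 1.42.0 as an alternative) and adjusted by Benjamini-Hochberg over all labels or families of the table. In the fits of labels the estimated prior degrees of freedom were infinite, so their SE and p rest on a spread pooled over labels. Contrasts by experiment took the WT and KO libraries of 1 experiment and treatment as replicates. Single values per library were tested by exact permutation. The fit code was tested on simulated data. Experiments pair libraries as labelled batches; deviations of libraries of 1 experiment correlated at -0.129 to 0.288 over 6 pairs of groups. Named were all TRAV7 labels, TRBV12-1, partners past adjusted p 0.05 (up to 8 in each direction), the 10 largest clones and the 10 alpha chains in most libraries; further pairings are marked in the text as chosen after their values were seen. One junction sequence is not reported here.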

Additional observations from a re-analysis of the deposited data

How the results depend on the processing

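The alternatives were TMM factors, DESeq2, no filter on low counts, cells in place of clonotypes, at least 3 UMIs per chain, exactly 1 TRA, no TRBV12-1, clonotypes by TRB alone, no thinning, expansion from 3 cells, leaving out each library, and, added after the data were seen, every TRA chain counted and the joined TRBV label counted as TRBV13-2. Neither the TRAV7 family nor a TRAV7 label passed the threshold under any of them. With experiment as the replicate block the family differed by 0.07 with anti-4-1BB and -0.07 in KO, and the block changed no call. With cells in place of clonotypes, signs turned for the family in WT (-0.0337), in experiment 1 (0.0459) and between experiments (-0.0173), for TRAV7-5 (-0.00613) and TRAV7-6 (-0.266) with anti-4-1BB, and for TRAV7-1 (-0.0493) and TRAV7-3 (-0.0899) in KO. TRAV7-3 in KO was also at -0.0144 with exactly 1 TRA and -0.00115 without TRBV12-1. KO minus WT in expanded share was 0.384 with clonotypes by TRB alone. The CDR3 length difference was -0.0441 (exact permutation p = 0.289) with cells. TRBV labels called numbered 1 with DESeq2 and 3 both with cells and without TRBV12-1, against 5, and the cause was not tested. With cells, the TRBV12-1, TRBV31, TRAJ22 and TRAJ15 calls ended.

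Leaving out each library in turn gave, with anti-4-1BB, log2 differences of -0.16 to 0.36 for TRAV7-4, -0.0820 to 0.14 for TRAV7-5, -0.0801 to 0.21 for TRAV7-6, -0.0761 to 0.15 for TRAV7D-2, and for the family -0.0404 to 0.13 in WT, -0.0966 to 0.0470 in experiment 1 and -0.0393 to 0.13 for KO minus WT. In KO against WT it gave -0.13 to 0.57 for TRAV7-1, -0.11 to 0.19 for TRAV7-3, -0.11 to 0.41 for TRAV7-4, -0.15 to 0.0684 for TRAV7-5, -0.23 to 0.000751 for TRAV7D-2, -0.27 to 0.19 for TRAV7D-4 and -0.12 to 0.65 for TRAV7N-4. TRBV labels called ranged from 1 (without WT anti-4-1BB of experiment 1) to 6, TRAJ labels from 7 to 11. Expanded share ranged from -3.97 to 2.49 points for KO minus WT and from -1.86 to 0.351 for TRAV7 minus other cells. With 2 libraries a group and 53 to 112 clonotypes for the rare copies, small differences were not detectable.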

Other observations

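In 5 cases a TRAV7 receptor was identical in nucleotides in 2 libraries. The largest, TRAV7N-6–TRAJ23 (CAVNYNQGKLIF) with TRBV14–TRBJ2-4 (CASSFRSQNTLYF), had 10 cells, 8 and 2, in the IgG libraries of WT and KO of experiment 1. The 4 others had 2 or 3 cells in all. They used TRAV7-6, TRAV7D-2, TRAV7N-6 and TRAV7N-5, each in 2 libraries of 1 experiment. Over all receptors 33 of 30455 were shared in this way. Combinations of TRAV7 label, TRAJ, TRBV and CDR3 beta that recurred in 3 clonotypes included TRAV7-5–TRAJ27 with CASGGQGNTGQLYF on the joined TRBV label, in 3 libraries, and TRAV7D-2–TRAJ37 with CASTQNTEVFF on TRBV13-3, in 3 libraries and 8 cells.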
